A study of Mus musculus with 71 samples.

Results

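Fcer1g, Tyrobp, Hcst and Cd247 encode signalling adaptors, Syk and Zap70 the tyrosine kinases that bind phosphorylated adaptors, and Fcgr3 an IgG receptor that signals through such an adaptor. These 7 genes were taken by name from the 24475 genes of the bulk table and from the 25127 genes of the single-cell tables, and all 7 were found in both. They were described in γδ intraepithelial lymphocytes (γδ IELs), T cells that lie between the epithelial cells of the gut, sorted as CD45+ TCRβ- TCRγδ+ from the duodenum, jejunum and ileum of mice. The mice were WT or Btnl2-KO, in which a LacZ knock-in removes Btnl2, a butyrophilin-like gene of the gut epithelium; the deletion is in the whole animal and not limited to the epithelium, and both genotypes were female C57BL/6 littermates housed together. The bulk libraries came from mice labelled 10 weeks old, with 4 WT libraries in each segment and 3, 4 and 3 Btnl2-KO libraries in the duodenum, jejunum and ileum, each from a pair of pooled mice. The 6 single-cell libraries, labelled 8 to 10 weeks, held 1 library for each segment and genotype, made from the remainder of the same sorts, so they are not independent of the bulk libraries and have no replicates.

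An ITAM is a short tyrosine motif in the tail of an adaptor. Once an Src-family kinase phosphorylates it, Syk or Zap70 docks there and passes the signal on to scaffold proteins. Cd247 encodes the ζ chain of the T cell receptor complex; Fcer1g encodes the Fc receptor γ chain, which in γδ T cells can take the place of ζ in that complex; Tyrobp encodes DAP12 and Hcst DAP10, partners of activating NK cell receptors, DAP10 with a PI3-kinase binding motif in place of an ITAM. Zap70 is the kinase known from T and NK cells, and Syk that known from B, myeloid and mast cells.

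The 22 bulk libraries held 13444964 to 30029485 counts each (median 18277160), and the single-cell libraries 3589 to 4647 cells with medians of 4877 to 5468 UMIs (molecules counted by a unique identifier) per cell. Any 2 single-cell libraries shared 18 to 31 cell barcodes. Btnl2 was at 0 to 2 counts in the KO and 37 to 327 counts in the WT bulk libraries, and LacZ had 8 to 21 UMIs in the KO and 0 in the WT single-cell libraries, so no library went against its genotype label. Cd3e, a defining T cell gene, had a UMI in over 99.5% of cells of each library, and Cd7, a gene typical of IELs, in 98.3 to 98.8%. The p-values below measure the spread between these libraries of pooled mice. The share of all genes without overlap between such small groups was not counted, so an absence of overlap below is a description only.

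The promoter letters of Fcer1g, Fcgr3, Hcst, Cd247 and Zap70 are shown first. The stretches below are the 250 bases before the first listed RefSeq start (build GRCm38.p6), read 5′ to 3′ on the gene's strand, with every GGAA, the core of Ets factor sites, or its complement TTCC in capitals. Fcer1g and Fcgr3, found in the same cells below, are followed by Hcst, Cd247 and Zap70, found in cells with and without them; the Cd247 stretch lies in an exon of the non-coding gene Gm16565 in the GENCODE annotation.
Fcer1g: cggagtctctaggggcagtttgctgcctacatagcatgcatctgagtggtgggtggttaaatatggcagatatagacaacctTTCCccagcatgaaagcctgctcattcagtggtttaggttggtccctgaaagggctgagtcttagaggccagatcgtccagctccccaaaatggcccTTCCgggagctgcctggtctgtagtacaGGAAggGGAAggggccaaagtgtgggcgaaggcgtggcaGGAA
Fcgr3: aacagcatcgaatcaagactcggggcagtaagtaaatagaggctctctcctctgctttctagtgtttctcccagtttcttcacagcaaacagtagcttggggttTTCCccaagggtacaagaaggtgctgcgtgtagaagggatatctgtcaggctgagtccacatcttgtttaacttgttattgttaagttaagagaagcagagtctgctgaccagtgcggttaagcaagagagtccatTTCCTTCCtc
Hcst: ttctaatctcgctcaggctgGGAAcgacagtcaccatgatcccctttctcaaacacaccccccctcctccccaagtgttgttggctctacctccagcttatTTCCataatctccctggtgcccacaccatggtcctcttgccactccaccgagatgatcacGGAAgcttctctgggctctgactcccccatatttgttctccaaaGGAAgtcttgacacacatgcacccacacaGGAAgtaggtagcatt
Cd247: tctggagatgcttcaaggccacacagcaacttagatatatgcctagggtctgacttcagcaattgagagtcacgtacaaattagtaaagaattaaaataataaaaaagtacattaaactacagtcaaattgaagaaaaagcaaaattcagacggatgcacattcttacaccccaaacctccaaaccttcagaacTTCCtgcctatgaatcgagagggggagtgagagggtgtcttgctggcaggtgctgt
Zap70: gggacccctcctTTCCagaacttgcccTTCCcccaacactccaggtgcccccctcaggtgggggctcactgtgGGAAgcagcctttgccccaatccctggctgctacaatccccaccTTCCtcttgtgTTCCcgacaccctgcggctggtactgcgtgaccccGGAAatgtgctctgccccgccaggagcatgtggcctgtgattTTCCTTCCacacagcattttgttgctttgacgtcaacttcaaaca
In order, these stretches are chr1:171234350-171234599 (minus strand), chr1:171059404-171059653 (minus), chr7:30419855-30420104 (minus), chr1:165788431-165788680 (plus) and chr1:36761548-36761797 (plus). The annotated genes span chr1:171051169-171065915 for Fcgr3 and chr1:165779952-165871153 for Cd247, so their stretches lie inside the genes. Those of Fcer1g, Hcst and Zap70 lie just before theirs, and the counts below are of unlike places in that respect. Both strands were searched, and overlapping matches would each count. The Fcer1g stretch held 5 GGAA cores, that of Fcgr3 held 3, that of Hcst 5, that of Cd247 1 and that of Zap70 8. The core is common, being present in 93.4% of 32851 mouse promoter stretches of this length. TGTGGT, a Runx core present in 14% of the mouse stretches, was in none of these 5. A search for the GC box, spelled GGGCGG and present in 32.7% of stretches, found none in the 5. The same held for the TATA box, spelled TATAAA and present in 12.4%. Further starts are listed for Fcgr3 (2 in all) and Zap70 (3 in all): the second of Fcgr3 also held 3 GGAA cores, and the other two of Zap70 held 7 and 0, that with 7 also holding 1 Runx core. RefSeq entries were matched for 6 of the 7 members; Tyrobp was not matched. Tyrobp (chr7:30413782-30417582, plus strand) and Hcst (chr7:30417712-30419854, minus strand) lie tail to tail with 129 bases between them, and their exons do not overlap.

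The members spanned a wide range of levels, and after division by exon length Fcer1g, Tyrobp and Hcst were above the others. In counts per 1000000 counts of a library (CPM), divided by exon length, the mean over the 22 bulk libraries was 1581 ± 416 CPM per kb for Fcer1g, 1157 ± 614 for Tyrobp and 635 ± 273 for Hcst (SD). It was 106 ± 20.2 CPM per kb for Zap70, 75.4 ± 16.7 for Cd247, 16.0 ± 6.15 for Fcgr3 and 0.384 ± 0.254 for Syk. The ranges over libraries of the neighbours Fcer1g, Tyrobp and Hcst overlapped in that order, as did those of Zap70 and Cd247, with Zap70 at 74.9 to 149.6 and Cd247 at 51.8 to 110.2 CPM per kb. Without the division by exon length, Cd247 was above Hcst in the bulk libraries, with medians of 318 and 257 CPM. The single-cell levels kept Fcer1g, Tyrobp and Hcst at the top and Syk at the bottom. Among related receptors, Fcgr2b reached at most 9 counts and Fcgr4 at most 1 count in a bulk library, against 79 to 658 counts of Fcgr3, and reads shared between these related genes could have been split by the counting.

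**Figure D1:**
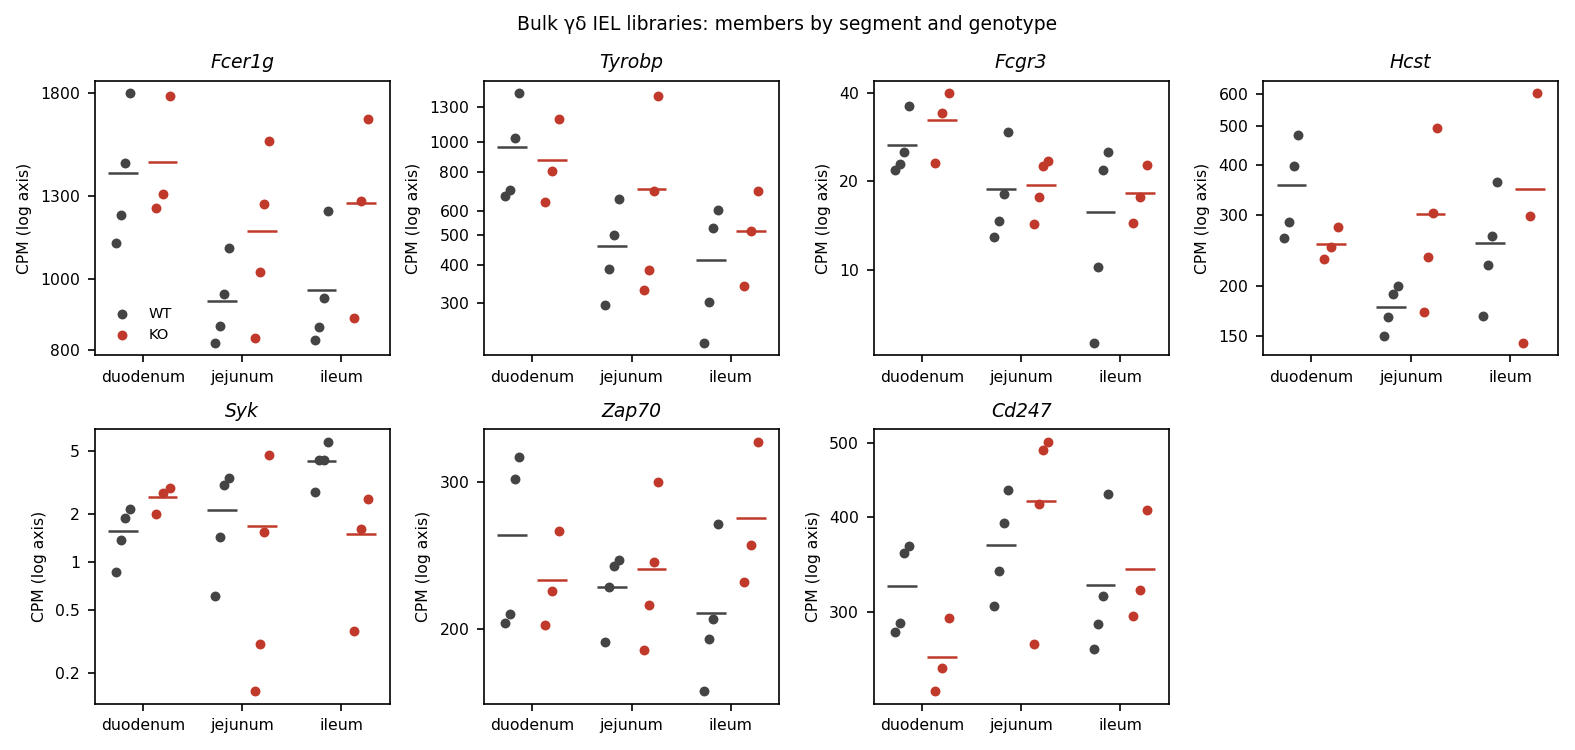
CPM of each member (y axis, log scale) in the 22 bulk γδ IEL libraries by segment (x axis) for WT (grey) and Btnl2-KO (red); each point is a library and each bar the group mean. Tyrobp and Hcst lay lower in WT jejunum than in WT duodenum without overlap. The genotypes overlapped in every panel and segment except for Syk in the ileum. The share of all genes without overlap was not counted.

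To ask whether loss of Btnl2 changed the signalling module, Btnl2-KO and WT libraries were compared within each segment by edgeR's quasi-likelihood test, with a call at an adjusted p (FDR) below 0.05 and a fold above 1.5. None of the 7 members was called in any segment; at an unadjusted p below 0.05 there was 1 in each, Hcst in the duodenum and the jejunum and Syk in the ileum. Over all genes, 0.00789% of 12680 tested were called in duodenum, 0.00794% of 12594 in jejunum and 0% of 12604 in ileum, so few calls of any gene were made, while at an unadjusted p below 0.05 there were 263, 804 and 1108 genes. DESeq2 also called no member in these comparisons, although it called 221 genes in the ileum.

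Tyrobp stood at 671, 702, 1037 and 1447 CPM in WT duodenum and at 638, 809.6 and 1192 CPM in KO duodenum. In the jejunum it was 294.5, 387, 500.5 and 652 CPM in WT and 331.5, 383, 694 and 1414 CPM in KO. The ranges overlapped in both segments, and a single KO jejunum library set the highest value there. The log2 fold change of KO over WT was -0.13 ± 0.29 (SE), 0.69 ± 0.48 and 0.35 ± 0.38 from duodenum to ileum (FDR 0.997, 0.621 and 0.784).

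Fcer1g was 1120, 1224, 1442 and 1799 CPM in WT and 1251, 1308 and 1783 CPM in KO duodenum. In the jejunum it was 818, 862, 952.5 and 1103 CPM in WT and 829.4, 1021, 1266 and 1545 CPM in KO, and in the ileum 825, 860.4, 942 and 1240 and 884, 1279 and 1657 CPM. The KO libraries reached higher than the WT libraries in jejunum and ileum, and their lowest values overlapped the WT range. Its log2 fold changes of KO over WT were 0.05 ± 0.20, 0.37 ± 0.22 and 0.43 ± 0.28 from duodenum to ileum. Cd247, its alternative in the receptor complex, was 283, 291, 358.5 and 366 CPM in WT and 236, 254 and 295 CPM in KO duodenum. It had log2 fold changes of -0.31 ± 0.15, 0.24 ± 0.22 and 0.09 ± 0.24. Neither gene was called in any segment, and the genotypes overlapped in each.

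Hcst gave the lowest unadjusted p among the adaptors, with opposite directions in neighbouring segments. In the duodenum the WT libraries held 264, 288, 398 and 475 CPM and the KO libraries 233, 250 and 279.7 CPM (log2 fold change -0.48 ± 0.20, unadjusted edgeR p-value 0.0373, FDR 0.997). In the jejunum the WT libraries held 149.9, 167, 191 and 200.3 CPM and the KO libraries 173, 237, 303.5 and 494 CPM (0.82 ± 0.31, unadjusted edgeR p-value 0.0270, FDR 0.583). The groups overlapped in both segments. The difference between these effects was tested as a genotype by segment interaction over all 22 libraries by edgeR, and it was 1.27 ± 0.52 on the log2 scale with FDR 0.792. No member was called in any of the 3 interactions, where 0% of 13360 genes were called in each (647, 1926 and 765 at an unadjusted p below 0.05 for jejunum against duodenum, ileum against jejunum and ileum against duodenum; DESeq2 called 2 genes in each).

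Zap70, the kinase of T cells, had log2 fold changes of KO over WT of -0.18 ± 0.19, 0.12 ± 0.17 and 0.41 ± 0.24, from 202 to 336 CPM in the KO libraries of duodenum and ileum. Syk in the ileum was 2.74, 4.4, 4.41 and 5.73 CPM in WT and 0.367, 1.605 and 2.5 CPM in KO. Those groups did not overlap, and the log2 fold change was -1.50 ± 0.58 (unadjusted edgeR p-value 0.0271, FDR 0.521; DESeq2 FDR 0.193), which was not called. These values rest on 5 to 80 counts in a library.

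Syk was read beside the markers of epithelial, myeloid, mast and B cells. Summed over 13 epithelial genes, the markers ranged from 2966 to 7599 CPM in WT ileum and from 885 to 3212 CPM in KO ileum. With Epcam and Cdh1 left out, which γδ IELs carry themselves, the jejunum KO library with the lowest Syk (0.153 CPM) also had the lowest epithelial sum of the 22 libraries (94.2 CPM), and the jejunum KO library with 4.70 CPM of Syk had 3833 CPM. The ileum KO library with 0.367 CPM of Syk had 545 CPM, against 2402 to 6365 CPM in WT ileum. Syk did not follow these sums in all libraries. The WT duodenum libraries with 5642 and 4180 CPM held 1.89 and 1.38 CPM of Syk. That was less than in the WT ileum library with 2402 CPM (2.74). In the ileum, myeloid markers summed to 19.7 to 30.3 CPM in WT and 12.2 to 29.3 CPM in KO. Mast cell markers without Kit summed to 0.417 to 44.1 and 1.23 to 9.99 CPM. B and plasma cell markers without Cd79b summed to 1.86 to 13.3 and 0.432 to 12.2 CPM. The KO libraries with 0.153, 0.305 and 0.367 CPM of Syk had the lowest myeloid sums of the 22 (11.9, 12.6 and 12.2 CPM). The ileum KO library with 2.5 CPM of Syk had a myeloid sum of 29.3 CPM. The part of RNA from epithelial or other cell types in the Syk values of the bulk libraries was not tested. In bulk samples, fewer cells of a type and less RNA per cell cannot be told apart.

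Within WT, 3 of the 7 members were lower in jejunum than in duodenum, all of them adaptors. This was against a background in which 23.3% of 12629 genes tested were called in the same comparison, 1330 higher and 1607 lower in the jejunum. The WT jejunum stood apart from both neighbours: 21.7% of genes were called for ileum against jejunum, but 2.16% for ileum against duodenum. Its libraries were also deeper, with a median total of 20507789.5 counts, against 17574127.5 in WT duodenum and 16223461.5 in WT ileum. The part of depth in these calls was not tested. Tyrobp averaged 964 ± 362 CPM in duodenum and 459 ± 154 CPM in jejunum (SD, n = 4 each), a log2 fold change of -1.09 ± 0.30 (FDR 0.0170 by edgeR). Hcst averaged 356 ± 98.3 and 177 ± 22.9 CPM, -1.02 ± 0.19 (FDR 0.00486 by edgeR). Fcer1g averaged 1396 ± 300.3 and 934 ± 126 CPM, -0.60 ± 0.17 (FDR 0.0228 by edgeR), just past the fold minimum at 1.51-fold. For these genes every jejunum library lay below every duodenum library. Hcst stayed called under every setting run. Leaving out WT duodenum library 1105582 or WT jejunum library 1105595, or fitting all 22 libraries together, left only Hcst called (Tyrobp at FDR 0.0509, 0.0520 and 0.0697). Fcer1g was also not called without WT duodenum library 1105579 or WT jejunum libraries 1105596 or 1105598 (FDR 0.0513, 0.0519 and 0.0549 by edgeR), or without the filter on low counts, where its log2 fold change was -0.58.

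The other members gave no call from duodenum to jejunum. Fcgr3 was 21.75, 22.8, 25.1 and 36.1 CPM in duodenum and 12.95, 14.6, 18.1 and 29.3 CPM in jejunum (log2 fold change -0.51 ± 0.27, FDR 0.154 by edgeR), and it was called without WT jejunum library 1105597 (-0.82, FDR 0.0253). The log2 fold change was 0.16 ± 0.15 for Cd247 and -0.23 ± 0.17 for Zap70, both with overlapping ranges. Syk differed by 0.41 ± 0.51. The log2 ratio of Fcer1g to Cd247 within a library, which does not depend on library size, was 2.09 ± 0.33 in WT duodenum, 1.35 ± 0.24 in WT jejunum and 1.58 ± 0.08 in WT ileum (SD, n = 4). The duodenum and jejunum did not overlap, and the exact permutation test gave p = 0.0286, the smallest that 4 against 4 allows, and 0.171 after adjustment over the 12 ratio comparisons made. The WT ileum lay above the WT jejunum by 0.23, also without overlap and with the same p-values of this exact test, and the ileum and duodenum overlapped.

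From jejunum to ileum no member was called, where 21.7% of 12643 genes were. Hcst, at 168, 226, 267 and 362 CPM in WT ileum, differed from the jejunum by 0.54 ± 0.21 (FDR 0.0726 by edgeR; 0.0298 by DESeq2 at a fold under 1.5), and it was called when WT ileum library 1105590 was left out. From duodenum to ileum, 2.16% of 12535 genes and none of the members were called. Tyrobp was 223, 303, 525 and 602.5 CPM in the ileum, below every duodenum library (-1.22 ± 0.34, FDR 0.112 by edgeR). Syk was above every duodenum library (1.44 ± 0.37, FDR 0.0751 by edgeR), while the epithelial sums without Epcam and Cdh1 overlapped, at 2639 to 5642 CPM in WT duodenum. DESeq2 called both, at FDR 0.00547 and 0.00643, and edgeR called both when WT ileum library 1105587 was left out.

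In the Btnl2-KO libraries no member was called between segments. There 0% of 12711 genes were called for jejunum against duodenum, 0% of 12579 for ileum against jejunum and 0.505% of 12477 for ileum against duodenum (1323, 152 and 1215 at an unadjusted p below 0.05; DESeq2 called 93, 3 and 468). The KO duodenum held 23.1, 34 and 39.8 CPM of Fcgr3. The KO ileum held 14.4, 17.7 and 22.7 CPM (-0.81 ± 0.27, FDR 0.318 by edgeR). Tyrobp differed by -0.73 ± 0.35 between the same groups. Cd247 was 236, 254 and 295 CPM in the KO duodenum. It was 296, 321 and 408.5 CPM in the KO ileum (0.40 ± 0.22, FDR 0.632 by edgeR).

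**Figure D2:**
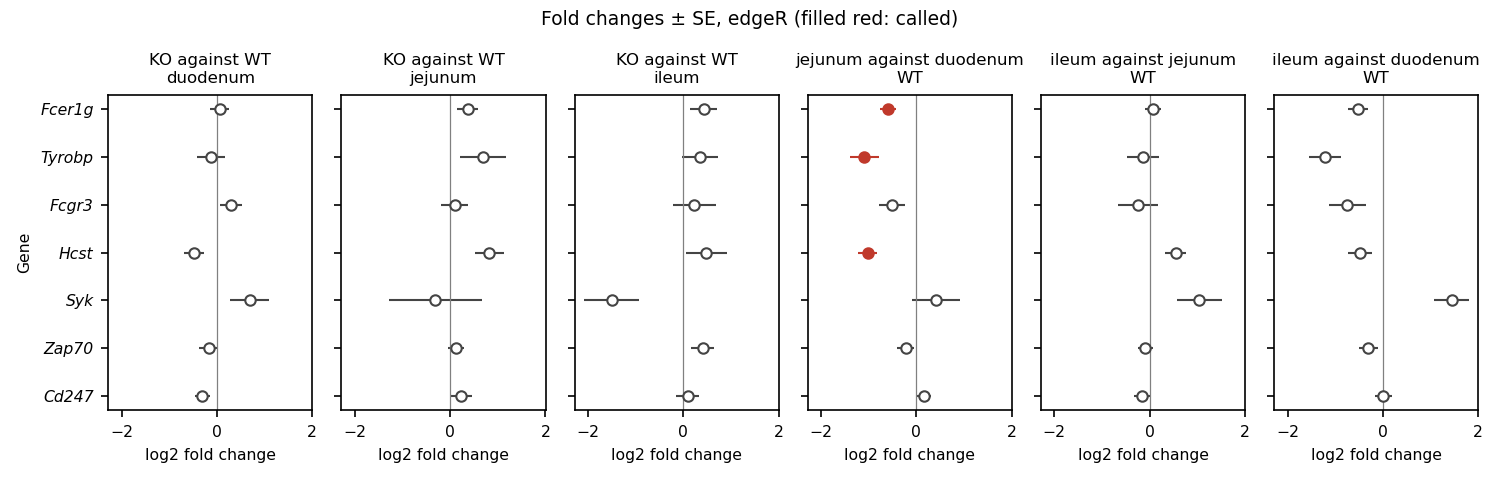
Log2 fold change (x axis) with SE for each member (y axis) in 6 edgeR comparisons: Btnl2-KO against WT in each segment and 3 pairs of segments within WT; filled red points were called. Only Fcer1g, Tyrobp and Hcst in WT jejunum against duodenum were called; Syk lay at -1.50 for KO against WT in the ileum with a long bar.

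The genes next to the members in the pathway were read from fixed lists. Of 19 tested relay genes, scaffolds and enzymes downstream of the kinases, 7 were higher and 1 lower in WT jejunum than in duodenum, with a list median of 0.43 on the log2 scale against 0.01 over all genes, and 23.3% of all genes called in either direction. Vav2, a guanine exchange factor, rose by 1.63, the phospholipases Plcg1 and Plcg2 by 1.46 and 0.99, and the kinase Prkcq by 0.84. Of 12 genes that brake the signal, 4 were higher, to be read against the same 23.3%: the phosphatases Ptpn22 and Inpp5d (0.90 and 0.79), the ubiquitin ligase Cbl (0.71) and the adaptor Sla (0.64).

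From WT jejunum to ileum, 8 of 19 relay genes and 4 of 12 brake genes were lower and none higher, where 1379 of all 12643 genes were lower and 1369 higher (21.7% called). Plcg1 fell by 1.41 on the log2 scale, Pik3cd by 0.84, Plcg2 by 0.83 and Prkcq by 0.71, while Inpp5d fell by 1.08, Cbl by 0.87, Ptpn22 by 0.83 and Cblb by 0.76. The WT jejunum libraries are shared by the 2 comparisons. Between duodenum and ileum, 0 of 19 relay and 0 of 12 brake genes were called by edgeR (1 and 0 at an unadjusted p below 0.05). The called relay genes other than Grap2 (-0.72), a scaffold, were thus higher in WT jejunum than in duodenum, where Fcer1g, Tyrobp and Hcst were lower.

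Among receptors, or chains of receptors, that can couple to the adaptors, 6 of 17 listed genes had enough counts to test in WT jejunum against duodenum. Ncr1, an NK receptor, was called higher at a low level (0.975 ± 0.409 against 0.223 ± 0.246 CPM). Klrk1, which encodes NKG2D, the receptor that pairs with DAP10, rose from 6.98 ± 3.28 CPM in WT duodenum to 19.2 ± 4.005 CPM in WT ileum (log2 fold change 1.45 ± 0.32, FDR 0.0370 by edgeR), and was also higher in WT ileum than in jejunum (0.88 ± 0.31). Klrd1, encoding the receptor chain CD94, was the most abundant of the list and was not called in any genotype comparison (group means of 679 to 1081 CPM over the 6 groups). Its level alone does not tell how much of CD94 is coupled to an adaptor. Of the T cell receptor complex, Cd3d was lower in WT jejunum than in duodenum (-0.64 ± 0.18) and Cd3e lower in WT ileum than in jejunum (-0.60 ± 0.20). Of the 10 tested Src-family genes and their controllers, Fgr rose by 0.65 and Src fell by 0.89 in WT jejunum against duodenum, 2 of 10 where 23.3% of all genes were called, and Fgr fell by 0.67 in ileum against jejunum. No gene of these 5 lists was called between Btnl2-KO and WT in any segment by edgeR; at an unadjusted p below 0.05 a list had at most 3, the relay genes in the ileum.

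In the single-cell libraries Tyrobp, Fcer1g and Fcgr3 were lower towards the ileum in both genotypes. In UMIs per 1000000 UMIs of a library (UMI CPM), Tyrobp was 1256, 995 and 715 in the WT duodenum, jejunum and ileum, and 1339, 842 and 682 in the KO. The 95% Poisson intervals of these sums did not overlap between segments of either genotype, but they cover counting error only and say nothing of mice. Fcgr3 ran from 19.1 to 13.9 to 9.98 in WT and from 22 to 13.0 to 10.4 in KO. Fcer1g ran from 2264 to 2046 to 1865 in WT and from 2512 to 2122 to 2038 in KO. The ileum held 0.569 times the duodenal level of Tyrobp in WT and 0.509 times in KO, and 0.824 and 0.811 times that of Fcer1g.

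Zap70 differed little between the segments, and Hcst and Cd247 went slightly the other way. Hcst was 833, 879 and 897 UMI CPM in WT and 791, 813 and 845 in KO, without the lower jejunum level of the WT bulk libraries; the cause was not tested. Zap70 stayed between 361 and 377 in all 6 libraries. Cd247 was 277, 289 and 304 in WT and 238, 239 and 252 in KO. The KO library was thus at 0.860, 0.828 and 0.828 times the WT level from duodenum to ileum. Lower KO levels in each segment were also seen for Hcst (0.950, 0.924 and 0.943 times) and Zap70 (0.976, 0.986 and 0.962 times). Fcer1g was higher in each KO library (1.11, 1.04 and 1.09 times). In the bulk libraries of the same sorts the Cd247 difference of KO over WT was -0.31, 0.24 and 0.09 on the log2 scale, lower in the duodenum and not lower in the other segments. With 1 library for each group, no test of any single-cell difference was made.

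**Figure D3:**
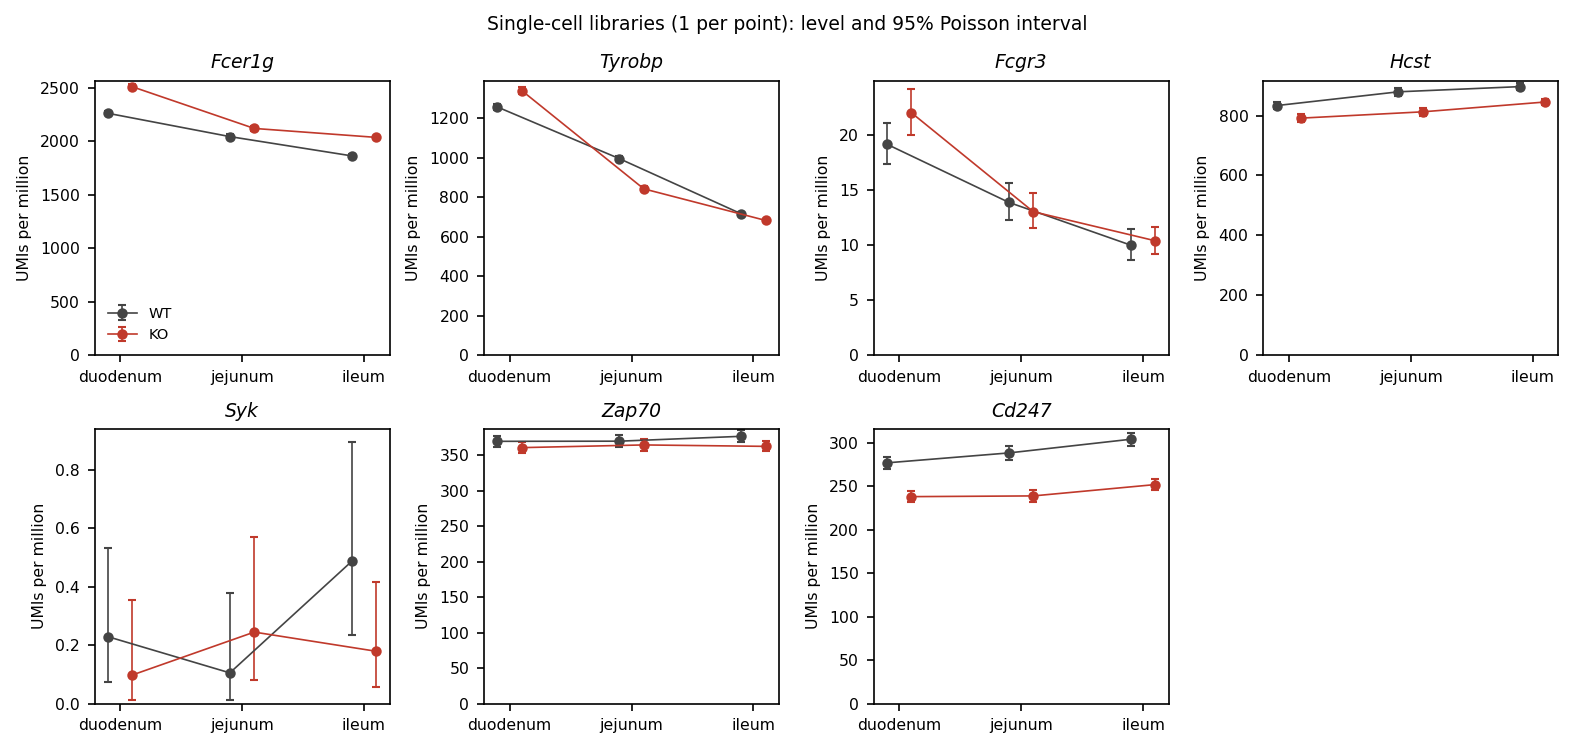
UMI CPM of each member (y axis, from 0) by segment (x axis) in the 6 single-cell libraries, WT in grey and Btnl2-KO in red; each point is 1 library, lines join the segments of a genotype, and each bar its 95% Poisson interval, which covers counting error only. Tyrobp and Fcgr3 declined from duodenum to ileum in both genotypes, while Zap70 stayed at 361 to 377. Cd247, Hcst and Zap70 were lower, and Fcer1g higher, in each KO library than in the WT library of its segment.

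At the level of cells, Hcst, Zap70, Fcer1g and Cd247 were found in most cells and Fcgr3 in few. Across the 6 libraries 88.6 to 92.0% of cells had an Hcst UMI, 79.1 to 83.6% a Zap70 UMI and 63.9 to 72.7% a Cd247 UMI. Fcer1g was found in 74.4 to 84.7%, Tyrobp in 39.3 to 57.0% and Fcgr3 in 4.47 to 9.18%. After each cell was thinned to 1500 UMIs, so that depth was equal, 30.9 to 47.8% of cells kept a Tyrobp UMI and 68.2 to 80.1% an Fcer1g UMI. At that depth 5.25 to 7.12% of WT cells and 4.95 to 6.42% of KO cells had a UMI of all 4 adaptors. With all UMIs kept, these shares were 24.0 to 31.4% of WT cells and 24.5 to 29.8% of KO cells.

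Syk was rare in these cells. It had 29 UMIs in 24 of 23569 cells (0.102%), against 47794 Zap70 UMIs in 19266 cells (81.7%), or 1648 Zap70 UMIs for each Syk UMI. Of the 24 Syk cells, 15, with 20 of the 29 UMIs, carried 2 or more UMIs of epithelial, B, mast or myeloid markers (genes common in these cells left out), against 833 of all 23569 cells (3.53%). A Cd3 UMI was missing in 12 of the 24. Of the 24, 9 lay in the cluster led by the Paneth cell defensin gene Defa24, with 13 of the 29 Syk UMIs, 0 to 14 Cd3 UMIs and 219 to 917 epithelial UMIs a barcode. A pair of others, without a Cd3 UMI, carried 3240 and 1772 mast cell UMIs. The 12 myeloid markers summed to 8.22 to 10.7 UMI CPM in a library, most of it Cd68 (3.62 to 6.37) and the integrin gene Itgam (2.01 to 5.91), with Lyz2 at up to 1.32. The defining markers Csf1r, C1qa and Csf3r were each at most 0.0979 UMI CPM.

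Which adaptors share a cell was read from the log2 odds ratio of 2 genes both having a UMI in a cell thinned to 1500 UMIs, within each library. Fcer1g and Tyrobp were joined at 4.51 ± 0.44 (mean ± SD over 6 libraries; 8826 cells with both). Fcgr3 went with both, at 3.91 ± 0.48 with Tyrobp and 3.80 ± 1.28 with Fcer1g, and Fcer1g is the chain that this receptor needs for signalling. These 2 values rest on few cells. In a library, 0 to 4 cells had Fcgr3 without Fcer1g, and 5 to 12 had Fcgr3 without Tyrobp. The highest value of Fcer1g with Fcgr3, 6.09 in KO duodenum, came from 0 such cells, with 0.5 added to each count. The order of these 3 pairs differed between libraries, and without thinning Fcer1g with Fcgr3 reached 5.43 and Tyrobp with Fcgr3 4.73. In cells without a Tyrobp UMI 59.0 ± 3.80% had Fcer1g, in cells with 1 UMI 92.7 ± 2.21%, and in cells with 2 or more 98.4 ± 0.47%. The reverse was less complete: of cells with 2 or more Fcer1g UMIs, 55.7 ± 6.69% had Tyrobp. Cells of a library share its background RNA, so these are descriptions without a test.

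Cd247 and Hcst ran against that group. The log2 odds ratio was -0.56 ± 0.08 for Fcer1g with Cd247, -0.62 ± 0.09 for Tyrobp with Cd247 and -0.66 ± 0.08 for Tyrobp with Hcst, below 0 in all 6 libraries each. Fcgr3 showed -0.74 ± 0.31 with Cd247 and -0.72 ± 0.36 with Hcst. Fcer1g with Hcst was -0.21 ± 0.18, with 1 library above 0. A Cd247 UMI was found in 35.7 ± 2.45% of cells without Tyrobp and in 26.3 ± 2.51% of cells with 2 or more Tyrobp UMIs, and an Hcst UMI in 69.5 ± 1.05% and 56.1 ± 1.49%. Cells with Fcer1g and without Cd247 made up 46.3 to 57.7% of the thinned cells of a library, those with Cd247 and without Fcer1g 7.12 to 13.3%, and those with both 20.4 to 22.7%. These shares depend on depth. With all UMIs kept, cells with both were the largest class, at 51.57% or more of each library. Those with Fcer1g and without Cd247 were then 21.7 to 31.9%, and those with Cd247 and without Fcer1g at most 20.07%.

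Zap70 leaned weakly towards the Fcer1g and Tyrobp cells. Its log2 odds ratio was 0.43 ± 0.07 with Tyrobp and 0.38 ± 0.05 with Fcer1g, positive in all 6 libraries, and 0.34 ± 0.28 with Fcgr3, positive in 5. With Cd247 it was 0.02 ± 0.11 and with Hcst 0.07 ± 0.12, both smaller than their spread and both below 0 under some settings. Hcst with Cd247 was at 0.14 ± 0.06. All pairs with Syk rested on 5 cells or fewer and were left out.

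**Figure D4:**
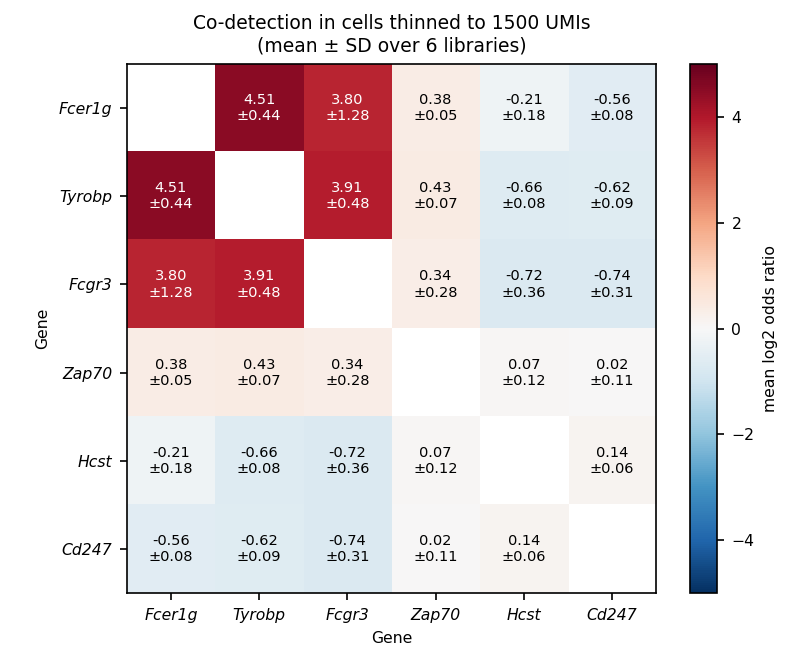
Mean log2 odds ratio (colour and printed value, ± SD over 6 libraries) that 2 members, on the x and y axes, both have a UMI in a cell thinned to 1500 UMIs. Fcer1g, Tyrobp and Fcgr3 form a positive block of 3.80 to 4.51. In it, Fcgr3 with Fcer1g rests on 0 to 4 cells of a library with Fcgr3 and without Fcer1g. Hcst and Cd247 lie below 0 against that block, and Zap70 lies between 0.02 and 0.43 with the others.

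The genes whose levels across cells were most like those of each member are given next. The measure was the mean Pearson r of log values within the 6 libraries, over 6574 other genes found in at least 2% of cells, given without a p. Fcer1g was most like Tyrobp (0.509), then Cd7, an early T and NK cell surface gene (0.450), Il2rb, the interleukin-2 and interleukin-15 receptor β chain (0.304), Cd8a (0.296) and Lag3 (0.266). Tyrobp was most like Fcer1g, Il2rb (0.391), Cd7 (0.388), Cd8a (0.299) and the granzyme gene Gzma (0.291). Fcgr3, which had few UMIs and was compared with 6575 genes, was most like Tyrobp (0.174) and Fcer1g (0.103), then Il2rb, Cd7 and Gzma. The lowest r of Fcer1g and of Tyrobp was with Thy1, a T cell surface gene, at -0.395 and -0.313.

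Hcst was most like the chemokine gene Ccl5 (0.135), then Gzmk (0.107), Gzmb (0.0982), Gzma (0.0966) and Itm2b (0.0817), and Tyrobp was its lowest of the 6574 genes (-0.137). Cd247 was most like the scaffold gene Lat (0.0638), then Plac8 (0.0541), Emp3 (0.0472), Dtx1 (0.0434) and Gzmk (0.0428), with Fcer1g its lowest (-0.0998) and Tyrobp next (-0.0992). Zap70 was most like Gzma (0.0902), Ccl5 (0.0880), Cd8a (0.0871), Tyrobp (0.0741) and Gzmb (0.0692). These r are weak in sparse counts, and the order is given as a description.

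Clustering of the cells on genes other than the members gave 9 clusters, 3 of which held most cells. The Spp1, Klra5 and Cd200r2 cluster (8468 cells) had 3335 UMI CPM of Fcer1g, 2055 of Tyrobp and 33.6 of Fcgr3. The Gzmk, Scin and Il7r cluster (8077 cells) had 1302, 201 and 2.06. The Tgm2, Tcf7 and Id3 cluster (5640 cells) had 1598, 354 and 2.82. Of these 3, Hcst was highest in the Gzmk cluster, at 1134 UMI CPM, against 763 and 683 in the Spp1 and Tgm2 clusters, and so was Cd247, at 346 against 221 and 247. Zap70 was 423, 359 and 310 in the same order. A UMI of Fcer1g was found in 97.5% of cells of the Spp1 cluster and 67.0% of the Gzmk cluster, and one of Tyrobp in 87.0% and 20.96%.

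The shares of these clusters moved with the segments. The Spp1 cluster held 38.1, 37.0 and 29.8% of WT cells in the duodenum, jejunum and ileum, and 40.8, 36.3 and 33.7% of KO cells. Within the Spp1 cluster Tyrobp was also lower towards the ileum, from 2529 to 2093 to 1768 UMI CPM in WT and from 2489 to 1817 to 1548 in KO, and so was Fcgr3, from 41.9 to 30.8 to 27.9 and from 42.8 to 29.3 to 26.1. At the finer clustering of 15 groups, the shares of clusters high in Tyrobp differed by segment: the cluster led by Frmd5, Ptpn5 and Trf, with 2541 UMI CPM of Tyrobp, held 21.5, 19.4 and 9.89% of WT cells and 24.96, 18.1 and 10.3% of KO cells, and that led by Spp1 and Gm156, with 1756, held 5.16, 9.58 and 13.1% and 6.55, 11.6 and 16.3%. The part of these shares in the lower Tyrobp was not tested. Back at the coarser clustering of 9 groups, Fcer1g within the Spp1 cluster went from 3398 to 3239 to 3203 in WT and from 3526 to 3298 to 3287 in KO. Cd247 was lower in KO than in WT in every segment within the Spp1 and Gzmk clusters, at 193 to 206 against 229 to 254 UMI CPM in the Spp1 cluster and 306 to 316 against 362 to 391.9 in the Gzmk cluster. In the Tgm2 cluster it was 233, 228 and 254 in KO against 251, 243 and 269 in WT from duodenum to ileum.

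Smaller clusters showed how far the members vary. The interferon-response-like cluster led by Ifit1 (165 cells) and the proliferating-like cluster led by Stmn1 and Birc5 (249 cells) held 1523 and 1345 UMI CPM of Fcer1g, and the proliferating-like cluster had the lowest Hcst of clusters over 100 cells (352). The immediate-early-like cluster led by Nr4a1, Egr2 and Egr3 (299 cells) had the highest Zap70 level (498). The Klf2, Igfbp4 and Lef1 cluster (177 cells) had the lowest Fcer1g of clusters of at least 100 cells, at 161 UMI CPM in 7.34% of its cells, while Cd247 was highest there (372, in 73.4% of its cells) and Zap70 lowest (169). Its Tyrobp level of 442 came from 322 UMIs in 9 cells, of which 268 were in 5; the 2 of its barcodes with a Syk UMI from the duodenum held 88 and 45 Tyrobp UMIs and no Cd3 UMI. At a finer clustering of 15 groups, the like cluster of 169 cells held 37.4 of Fcer1g and 13.5 of Tyrobp, so the ratio of highest to lowest cluster, over clusters of at least 100 cells, was 96.3 for Fcer1g and 189 for Tyrobp, against 20.8 and 10.2 for the coarser one. For Hcst, Zap70 and Cd247 the ratio was 3.23, 2.95 and 1.73 at the coarser and 2.56, 2.76 and 2.03 at the finer clustering. Cells are not replicates, and none of these differences was tested.

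**Figure D5:**
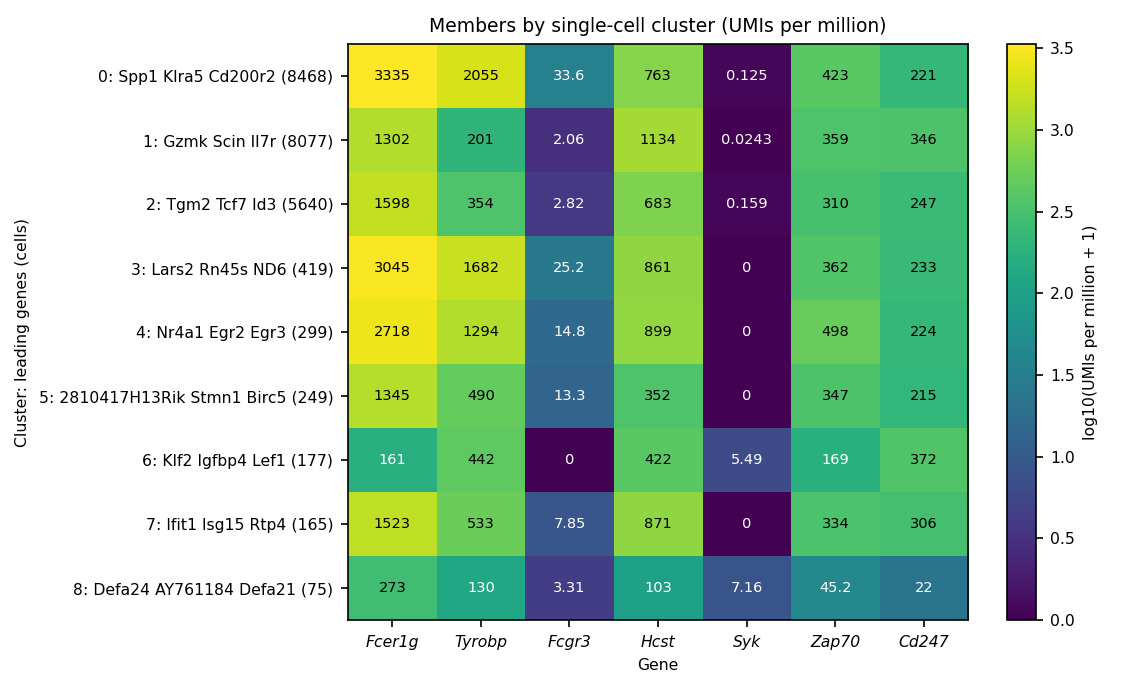
UMI CPM of each member (x axis; colour is log10 of the value plus 1, the value is printed) in the 9 clusters (y axis, named by leading genes that are not members, with cell numbers). Fcer1g, Tyrobp and Fcgr3 are highest in the Spp1 cluster and Cd247 highest in the Klf2 cluster, where Fcer1g is at 161, and Syk is highest in the Defa24 cluster of 75 barcodes.

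Among the rest of the pathway in single cells, Lck, the Src-family kinase of T cells, was at 971 to 1035 UMI CPM in the 6 libraries, with a UMI in 98.0 to 98.7% of cells. Ptprc, the phosphatase CD45, was at 586 to 654, Lat at 344 to 437, Lcp2 at 207 to 230.2 and the brake Ptpn6 at 305 to 346. Blnk, the scaffold typical of B cells, was at 0.0525 to 0.824, Btk at 0 to 0.183 and Card9 at 0 to 0.147 UMI CPM. Klrd1 had a UMI in 79.6 to 82.9% of cells at 920.2 to 982 UMI CPM, whereas Klrk1 was at 3.76 to 18.0 and Klrb1c at 9.49 to 14.9. The receptor genes Trem1, Trem2, Clec5a, Clec4n, Fcgr1 and Gp6 had 0 UMIs in all 6 libraries, which allows 3 counts, or up to 0.158 UMI CPM, in a library.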

How the data were processed

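RNA was measured in 22 bulk γδ IEL libraries and in 6 single-cell libraries; other samples of the series were not used. The authors made the bulk values with RSEM on sense-strand exon reads, and deposited expected counts per gene (build GRCm38, per the submitters' processing notes). The labels and the paper name different library kits, and the strand setting was not checked here. The authors deposited the single-cell tables as UMI counts per gene and cell, made with Cell Ranger on mm10. The bulk values were not whole in 5.001% of entries and were rounded; ids without a symbol (100 of 24475, 0.253 to 3.474% of counts in a library) stayed in the totals and in the tests. 1 column matched no sample and was not used.

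The test covered genes reaching 10 counts in a number of libraries equal to the smaller group's size, with edgeR 4.0.16 (TMM, quasi-likelihood, R 4.3.3), adjusted by Benjamini-Hochberg over all genes tested; DESeq2 1.42.0 was an alternative. SEs are the fold change over the root of the F statistic. The test was checked on simulated counts, where edgeR recovered 74% of 2-fold and 100% of 4-fold changes for Btnl2-KO against WT in the ileum, with 10 false calls. The simulated spread between libraries was a fixed value for all genes and was not estimated from these libraries. Only genes above a minimum level were changed, which leaves out genes as low as Syk. These shares are therefore not the power of the comparisons of the members. Replicates differed beyond sampling noise in all 30 pairs within groups (chi-square over its degrees of freedom 14.3 to 320); each is a pool of mice, and the study describes the 3 segments as taken from one cohort, but the library labels do not tie segments to mice, so segments were compared unpaired. Cells were kept at 500 or more genes and no more than 10% of UMIs from mitochondria (23569 of 23994); doublets were not called, and 5% of cells with the most UMIs were left out in an alternative. Clusters came from scanpy 1.11.5 (2000 variable genes without the members, 20 components, 20 neighbours, leiden resolution 0.4). Intervals are 95% exact Poisson and cover counting error only. The named genes were the 7 members, the called genes of each list with the largest change (at most 5), and the 5 genes most like each member. A gene of the lists that is withheld is not reported here by name. The members, lists and tests were chosen with earlier results of these data known. Alternatives were another normalization, no count filter, all libraries in 1 fit, each library left out, and other depths and cell filters.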

Additional observations from a re-analysis of the deposited data

How the results depend on the processing

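Of 1078 values recomputed for 101 results under other settings, 985 kept their direction and their side of the threshold, 13 were weaker, 9 stronger, 41 moved and 30 changed sign. The 0 members called between Btnl2-KO and WT was unchanged under every setting run. In WT jejunum against duodenum the count of 3 became 1 with all 22 libraries in one fit and ranged from 1 to 4 when each library was left out; in WT ileum against jejunum it ranged from 0 to 1, and in WT ileum against duodenum from 0 to 2, with 2 by DESeq2. None of the differences that changed sign when a library was left out was called. Between Btnl2-KO and WT they ranged, in the duodenum, from -0.13 to 0.20 on the log2 scale for Fcer1g and from -0.41 to 0.14 for Tyrobp; in the jejunum, from -0.041 to 0.39 for Fcgr3, from -1.71 to 0.077 for Syk and from -0.043 to 0.16 for Zap70; in the ileum, from -0.051 to 0.53 for Fcgr3, from -0.21 to 0.86 for Hcst and from -0.045 to 0.26 for Cd247. In WT ileum against jejunum they ranged from -0.079 to 0.17 for Fcer1g, -0.38 to 0.10 for Tyrobp, -0.56 to 0.072 for Fcgr3 and -0.23 to 0.00481 for Zap70, and in WT ileum against duodenum from -0.16 to 0.11 for Cd247. The cause of these changes was not tested.

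The mean share of cells with a UMI follows depth by construction. At 1000 UMIs per cell it was 68.7% for Fcer1g, 1.44% for Fcgr3, 52.9% for Hcst, 30.6% for Zap70 and 23.5% for Cd247, and without thinning 79.6%, 6.49%, 90.5%, 81.7% and 69.2%, with 48.3% for Tyrobp and 0.102% for Syk. The planned filter on 2 or more UMIs of other cell types gave 68.1% for Fcer1g, 68.5% for Hcst and 0.00732% for Syk, and it removed 48.7 to 55.2% of cells, since Cd79b, Cdh1, Epcam and Kit are found in these cells themselves; with those left out, chosen after seeing the data, it removed 2.43 to 4.12% and gave 0.00443% for Syk. Stricter cell filters gave 0.00488% for Syk.

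The log2 odds ratios at 1000 UMIs were 3.71 for Fcer1g with Tyrobp, 3.22 for Tyrobp with Fcgr3, -0.54 for Tyrobp with Hcst, 0.35 for Tyrobp with Zap70, -0.34 for Fcgr3 with Cd247, -0.057 for Hcst with Zap70 and -0.054 for Zap70 with Cd247. Without thinning they were 5.43 for Fcer1g with Fcgr3, 0.85 for Fcer1g with Zap70, -0.67 for Fcer1g with Cd247, 4.73 for Tyrobp with Fcgr3, -0.91 for Tyrobp with Hcst, 0.93 for Tyrobp with Zap70, 1.04 for Fcgr3 with Zap70, -0.41 for Fcgr3 with Cd247, 0.64 for Hcst with Zap70, 0.74 for Hcst with Cd247 and 0.43 for Zap70 with Cd247. With cells of at least 1000 genes they were -0.75 for Tyrobp with Hcst, 0.31 for Tyrobp with Zap70, -1.08 for Fcgr3 with Hcst, -0.40 for Fcgr3 with Cd247, -0.021 for Hcst with Zap70 and -0.079 for Zap70 with Cd247. Hcst with Zap70 was -0.014 without the 5% of cells with the most UMIs, -0.013 under the planned filter on other cell types and -0.00915 under the added one. The planned filter gave -0.51 for Tyrobp with Cd247 and 0.061 for Hcst with Cd247. The ratio of highest to lowest cluster was 96.3 for Fcer1g and 189 for Tyrobp at 15 clusters. The number of libraries and the counts of Syk and Fcgr3 limit what could be seen.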
